A study of Mus musculus with 8 samples.

Results

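The comparison set 2 arrays of spleen T cells against each other, both taken after 8 h of stimulation: the array labelled Gfi1-knockout and the array labelled wild type. They are 2 of the 8 Affymetrix MOE430A_2.0 arrays of the series, picked by genotype and time in the sample titles with no measured value involved. Both groups were C57Bl/6 mice. Spleen T cells were enriched on an AutoMACS (panT kit), and both cultures received antibodies to CD3 and to CD28 at 2 µg/ml. By the labels the arrays differ in the Gfi1 genotype and also in the number in their titles, which is 501 at all times for the knockout and 502 for the wild type, so genotype and whatever that number marks cannot be told apart. No unstimulated culture of 8 h is among the arrays. The allele of Gfi1, the number of mice behind an array and the purity of the enriched cells are not given in the sources used here. A single array stood for each genotype at each time, so no difference below has a replicate, an error or a p-value. Differences are given by size.

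Gfi1 is a zinc finger protein of blood cells that represses transcription by bringing the histone demethylase Kdm1a, its partner Rcor1 and histone deacetylases to its target genes. It is known for holding back myeloid genes, for its part in neutrophil maturation, and in T cells for its induction after receptor signalling and its part in proliferation and type 2 helper cells. Antibodies to CD3 and CD28 engage the T cell receptor and its costimulatory receptor, which switch on immediate early genes, cytokine genes, growth and later the cell cycle.

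A signal is the intensity the authors deposited for a probe set, a group of short probes to 1 transcript. Values under a floor of 141.88 were set to it, and a difference is the log2 signal of the knockout-labelled array minus that of the wild-type-labelled array, so 1 stands for 2-fold. Where 1 of the signals lay at the floor, the fold is a lower bound and is written "at least". A gene stands for its probe set with the highest mean over the 8 arrays, and was tested where that set exceeded the floor on at least 2 of them. Gene lists held 1032 genes, of which 858 were tested; the others had no probe set named for them alone or lay under the floor. A gene that passed only through the label where it was high had to differ, so list counts describe the tested members and support nothing further. Pairs of signals are given with the knockout-labelled array before the wild-type-labelled one.

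The arrays themselves were alike in some measures and not in others. At 8 h, 58.7% of probe sets exceeded the floor on the knockout-labelled array and 61.1% on the wild-type-labelled one. The 3' to 5' ratio, a sign of RNA quality, was 0.770 and 0.939 for Gapdh and 1.17 and 1.28 for beta-actin. Both ratios were highest in the series on the wild-type-labelled 8 h array. The other arrays lay between 0.725 and 0.813 for Gapdh and between 1.11 and 1.17 for beta-actin. 18S ribosomal RNA, by its 5' control, gave 2441 and 16126 at 8 h. All 18 probe sets of the hybridisation controls were lower on the knockout-labelled array, with a median difference of -0.74. Gfi1 itself did not separate the labels at 8 h, where its probe set gave 6459 and 5259. It was at least 2-fold higher on the knockout-labelled array at 0 h (2316 and 882) and at 24 h (9885 and 3966). At 4 h it gave 5979 and 6359. The position of the probe set relative to the deleted sequence is not stated. The arrays are called by their labels for that reason. As to the labelled cell type, all 9 T cell markers with a probe set exceeded the floor on both arrays, with a summed signal of 20194 against 52809. Markers of granulocyte precursors (5 of 5 above the floor on both) summed to 85930 against 1938, those of monocytes or macrophages to 57795 against 2887, those of mature neutrophils to 30832 against 3058, and those of eosinophils, basophils or mast cells to 6797 against 735.5. The mature neutrophil markers were split: Ltf, Ngp and Camp did not differ by 2-fold, and Ltf was at the floor on the knockout-labelled array. B cell markers summed to 709.9 against 1944, with Pax5 at the floor on both arrays. Plasma cell markers (2 with a probe set) summed to 19697 against 3601. Those of platelets summed to 1078 against 832.8 and those of red cells to 403.7 against 253.5. Ncr1 and Klra8 of natural killer cells, and Flt3 and Xcr1 of dendritic cells, were at the floor on both. In bulk RNA, fewer cells of a type and less RNA per cell cannot be told apart. The part of these markers, of the 3' to 5' ratios and of the control probe sets in the differences below was not tested.

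Of 8457 genes tested, 908 (10.7%) were at least 2-fold higher on the knockout-labelled array at 8 h and 564 (6.67%) at least 2-fold lower. Counted by probe set, 1559 of 15062 (10.4%) were higher and 1020 (6.77%) lower. The higher side reached further: 304 genes were at least 4-fold higher and 33 at least 4-fold lower, and 48 were at least 16-fold higher against a single gene, Il4, at least 16-fold lower. The median gene differed by -0.078, with quartiles at -0.49 and 0.35. The split of calls depends on how the arrays are scaled. With each array divided by its hybridisation controls the median gene moved to 0.53, and 2229 genes were higher and 70 lower, so 97.0% of called genes were higher in place of 61.7%. With the floor at the 20th percentile 1306 genes were higher and 1639 lower, 44.3% higher. Of the 908 higher genes, 713 had both signals above the floor and 195 only the knockout-labelled one; of the 564 lower genes, 502 had both and 62 only the wild-type-labelled one. Other tested probe sets of the same genes ran the same way for 476 of 540 on the higher side and 252 of 306 on the lower side, and passed 2-fold the same way for 55.9% and 33.0%.

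**Figure D1:**
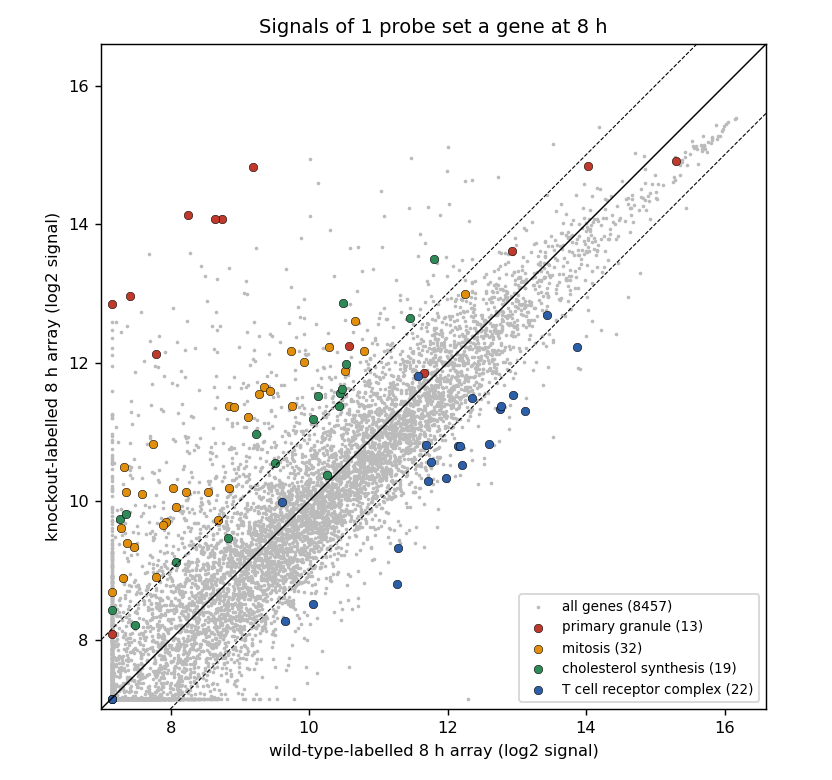
Signals of the 8457 tested genes at 8 h, as log2, with the wild-type-labelled array on the x axis and the knockout-labelled array on the y axis; the solid line marks equal signals, the dashed lines 2-fold, and coloured points are members of 4 gene lists. Primary granule genes and mitosis genes lie above the upper dashed line at 8 of 13 and 31 of 32 points, and 16 of 22 T cell receptor genes lie below the lower dashed line.

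Genes of the primary granule, the store of serine proteases and myeloperoxidase that granulocyte precursors lay down, had the highest list median at 8 h. Of 13 tested members 8 were at least 2-fold higher on the knockout-labelled array and 0 lower, with a median difference of 4.34. Mpo, myeloperoxidase, gave 28936 against 585 at 8 h, which is 49.4-fold. Ctsg, cathepsin G, gave 17933 against 306 (58.7-fold), and Prtn3, proteinase 3, gave 17268 against 398 (43.4-fold). All 3 were also higher at 0 h, by 3.40, 4.33 and 4.02 on the log2 scale. Elane, neutrophil elastase and a gene that Gfi1 is known to bind, gave 17312 against 429, or 40.4-fold. The signals of Elane on the knockout-labelled arrays at 0, 4 and 24 h were 22691, 23349.6 and 352, against 988, 841 and 99.7 on the wild-type-labelled ones. Both labels thus had their lowest Elane signal at 24 h, and the wild-type-labelled array was under the floor there. Mgst1, a glutathione transferase of membranes, gave 7987 against 170.1, and Ms4a3, a membrane protein of granulocyte and monocyte precursors, 4480.4 against 221. Hp, haptoglobin, gave 7359 on the knockout-labelled array and was under the floor on the other, at least 51.9-fold. Among the members that did not pass 2-fold, Srgn, the granule proteoglycan serglycin, gave 30697 against 40479, and Nkg7, of cytotoxic granules, 3688 against 3238.

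The stretches of 250 bases before the start of Prtn3, Elane and Mpo are shown because these 3 granule genes, all over 40-fold higher, share the letters GAGGAAGT, a form of the site of the myeloid factor PU.1. They come from the RefSeq promoter table for GRCm38.p6 and run 5′ to 3′ on the gene's strand, and capitals mark each match on either strand. Prtn3 and Elane are neighbours on chromosome 10, so their windows are chr10:79879417-79879666 and chr10:79886062-79886311, both on the plus strand, and that of Mpo is chr11:87793534-87793783 on the plus strand.
Prtn3: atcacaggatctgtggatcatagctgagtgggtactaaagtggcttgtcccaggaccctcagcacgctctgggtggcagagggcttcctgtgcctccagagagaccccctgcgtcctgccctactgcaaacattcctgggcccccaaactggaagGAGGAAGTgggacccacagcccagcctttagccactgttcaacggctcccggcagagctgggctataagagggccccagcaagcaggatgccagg
Elane: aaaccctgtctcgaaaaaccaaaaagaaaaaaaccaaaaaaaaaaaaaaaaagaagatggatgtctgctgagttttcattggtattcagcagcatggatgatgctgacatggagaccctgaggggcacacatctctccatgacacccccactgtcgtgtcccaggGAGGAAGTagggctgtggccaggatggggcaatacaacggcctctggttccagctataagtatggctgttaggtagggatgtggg
Mpo: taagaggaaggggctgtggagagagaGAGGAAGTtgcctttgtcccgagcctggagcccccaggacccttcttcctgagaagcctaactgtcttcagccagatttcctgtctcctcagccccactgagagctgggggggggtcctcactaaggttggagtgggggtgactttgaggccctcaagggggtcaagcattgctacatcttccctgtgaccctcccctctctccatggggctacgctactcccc
The match lies 95 to 88 bases before the start of Prtn3, 85 to 78 before that of Elane and 224 to 217 before that of Mpo. GAGGAAGT occurs in 2.44% of the 32851 promoters of the table, in 3.02% of the 6920 tested genes with a promoter there, and in 4 of 12 primary granule genes with one (Prtn3, Elane, Mpo and Prom1, but not Ctsg). It occurs in 3 of 14 secondary granule and mature neutrophil genes and 2 of 18 monocyte receptor genes. In the phagocyte oxidase, inflammatory and myeloid transcription factor lists it occurs in 0 of 19, 0 of 19 and 0 of 16. Among all genes at least 2-fold higher at 8 h it occurs in 4.34%, and among those lower in 2.19%. A match is a run of letters, not a measured site. The motifs here and below were chosen after the values were seen.

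Genes of later neutrophil stages were split. Of 15 tested members of the secondary granule and mature neutrophil list, 10 were at least 2-fold higher and 0 lower (median 3.38). Fpr2, a receptor for formylated bacterial peptides, had the largest difference of all genes with both signals above the floor: 12181 against 206, 59.1-fold. Lcn2, which binds iron-carrying siderophores, gave 7076 against 261. The calcium-binding alarmins S100a8 and S100a9 gave 15478 against 1268 and 6151 against 591. Chil3, a chitinase-like secreted protein, gave 3737 against 179.9, and Mmp8, neutrophil collagenase, 1458 against 169. Lcn2 and Mmp8 are proteins of the secondary granule, but not all such genes were higher. Ltf, lactoferrin, gave 82.3 against 177, Ngp 385 against 472, and Camp, cathelicidin, 201 against 119, none past 2-fold once values under the floor were set to it. Padi4 and Itgb2l were under the floor on both arrays.

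Receptors of monocytes were higher across nearly the whole list: 24 of 27 tested members were at least 2-fold higher, 0 lower, with a median of 3.33. Csf1r, the receptor of macrophage colony-stimulating factor, gave 9723 against 361 (26.9-fold), though its 3 probe sets ran from 2.43 to 4.75. Fc receptors bind antibody on phagocytes. Fcgr3 gave 5248 with the other array under the floor (at least 37.0-fold), Fcgr1 2425 likewise (at least 17.1-fold), and their signalling chain Fcer1g 7615 against 368. Among the C-type lectins, which recognise microbial sugars and dying cells, Clec5a gave 6813 against 190.3 and Clec4e 10804 against 348. Tlr2, a sensor of bacterial lipoproteins, gave 3068 with the wild-type-labelled array under the floor, at least 21.6-fold. The coreceptor Cd14 gave 3589.8 against 239.6. Near the 2-fold line lay Adgre1, the macrophage marker F4/80, with 435 against 205. C3ar1 and C5ar1, receptors of complement fragments, and Cd33 lay below it, with differences of 0.97, 0.36 and 0.39.

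In phagocytes these receptors feed an oxidase and lysosomal enzymes, and 19 of 22 such genes were at least 2-fold higher, 1 lower, with a median of 2.03. Cybb, the catalytic oxidase subunit, gave 9464 against 408 (23.2-fold), and its cytosolic partner Ncf1 4175 against 593. Lysozyme was represented by 2 near-identical genes whose probes cannot be assumed to separate them: Lyz1 gave 31323 against 1034 and Lyz2 24610.2 against 1115. The cathepsins Ctsb and Ctss differed less. Ctsb gave 7472 against 1466, with probe sets from 0.45 to 2.47, and Ctss 11446 against 4740. Acp5, the acid phosphatase of osteoclasts and macrophages, was the member on the lower side, under the floor on the knockout-labelled array against 378.

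Of 23 tested genes for inflammatory cytokines and mediators, 12 were at least 2-fold higher and 1 lower (median 1.77). Il1b, interleukin-1 beta, gave 5316 against 228 (23.4-fold), and its secreted antagonist Il1rn 1917 against 209, with probe sets from 0.49 to 3.52. Saa3, an acute phase protein, gave 10503 against 460.5, and Acod1, which makes itaconate in activated macrophages, 12901 against 604. Ptgs2, the inducible prostaglandin synthase, gave 4643 against 295. Il6 gave 2471 against 275, and the monocyte attractant Ccl2 1318 against a value under the floor (at least 9.29-fold). At 0 h Il6, Ptgs2, Acod1 and Ccl2 were under the floor on both arrays. Some members did not differ by 2-fold: Tnf gave 2454 against 3567, Ccl3 12143 against 7908 and Ccl4 9208 against 8540.1. Il12b, a subunit of interleukin-12 and interleukin-23, was the member on the lower side, with 319.7 against 791.

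Genes of eosinophils, basophils and mast cells were higher at 6 of 9 tested members (median 1.45). Prg2, eosinophil major basic protein, gave 4533 against 241, and Hdc, which makes histamine, 1498 against a value under the floor (at least 10.6-fold). Mcpt8, a basophil protease, gave 882 against 191. Among 20 myeloid transcription factors 8 were at least 2-fold higher and 0 lower (median 0.49, and 1.18 with hybridisation control scaling). Spi1, which encodes PU.1, gave 3261 against 273 (11.9-fold), Cebpd 1480.4 against a value under the floor, and Hoxa9 973 against 217, with another of its probe sets at 0.66. Cebpb, a driver of emergency granulopoiesis, gave 9331 against 4868, 0.94 on the log2 scale. Of 13 progenitor genes 7 were higher and 1 lower. Cd34, a stem and progenitor surface protein, gave 1160.2 against a value under the floor (at least 8.18-fold), and Kit, the stem cell factor receptor, 1168 against 385. Of 11 tissue macrophage genes 4 were higher and the median was 0: Vcam1, an adhesion molecule, gave 1402 against 228.

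**Figure D2:**
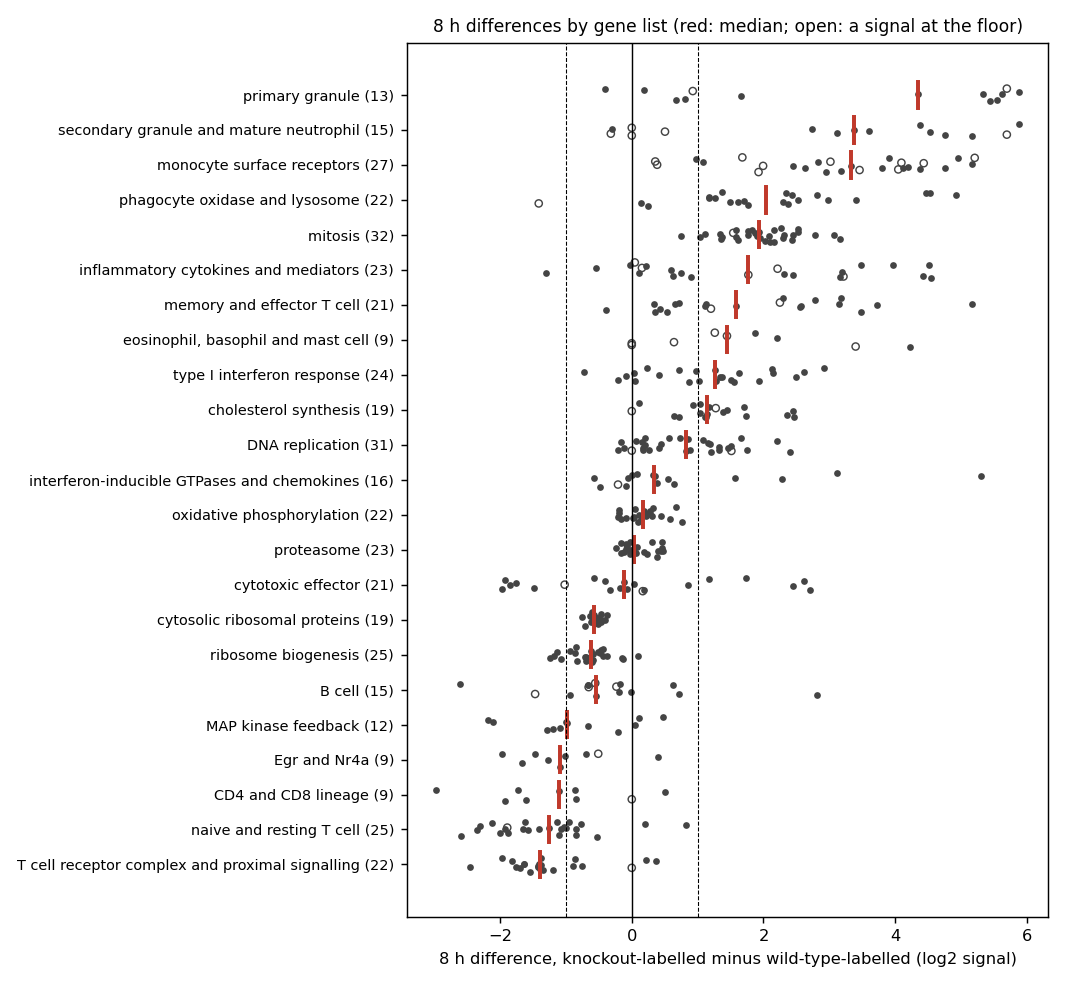
Difference at 8 h on the x axis (log2, knockout-labelled minus wild-type-labelled) for every tested member of selected gene lists, 1 row a list; red bars are list medians, open points have a signal at the floor and dashed lines mark 2-fold. Medians run from 4.34 for primary granule genes to -1.40 for T cell receptor genes, while oxidative phosphorylation and proteasome genes lie inside the dashed lines at all 22 and 23 points; dividing by the hybridisation controls turns the ribosomal protein, ribosome biogenesis, B cell and cytotoxic medians above 0.

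Genes that type I interferon induces were higher at 14 of 24 tested members and lower at 0, with a median of 1.27. Oasl1, of the oligoadenylate synthase family, gave 5349 against 705 (7.58-fold). Cmpk2, a mitochondrial nucleotide kinase, gave 3166 against 518, and Ifit2, which binds RNA, 5475 against 972. The antiviral enzyme Rsad2 gave 9319 against 2434, and Ifih1, a sensor of double-stranded RNA, 6389.5 against 2057. Not every member was higher: Ifit3 differed by -0.21, Oas2 by -0.083 and Ifi27l2a by -0.72. The unstimulated pair stood the other way, with a list median of -1.13 and 14 members at least 2-fold lower, where 6.78% of all genes were, and the 4 h pair had a median of 0.26. Ifit1 gave 127 against 809 at 0 h, 1356 against 837 at 4 h and 4134 against 2108 at 8 h.

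Among genes for interferon-inducible GTPases and chemokines 4 of 16 were at least 2-fold higher, 0 lower, and the median was 0.34 (1.09 with hybridisation control scaling). The 3 genes of the Cxcr3 ligand family of chemokines were all among them, as RNA signals only. Cxcl9 gave 35507 against 4106 (8.65-fold) and Cxcl10 25336 against 5224 (4.85-fold). Cxcl11 gave 12312 against 312 (39.5-fold), with 2.85 for its other probe set. The receptor gene Cxcr3, of T cells, gave 608 against 665. The GTPase Gbp3 gave 6045 against 2042, whereas Irgm2, Igtp and Gbp6 differed by 0.0099, -0.58 and 0.074. The inducing cytokine Ifng gave 12112 against 16010, and the factors Irf1 and Irf9 differed by -0.054 and 0.033.

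The Cxcl10 window is shown because it holds the interferon-stimulated response element searched, GAAANNGAA, marked in capitals. It lies at chr5:92348890-92349139 on the minus strand (RefSeq, GRCm38.p6), with the match 213 to 205 bases before the start.
Cxcl10: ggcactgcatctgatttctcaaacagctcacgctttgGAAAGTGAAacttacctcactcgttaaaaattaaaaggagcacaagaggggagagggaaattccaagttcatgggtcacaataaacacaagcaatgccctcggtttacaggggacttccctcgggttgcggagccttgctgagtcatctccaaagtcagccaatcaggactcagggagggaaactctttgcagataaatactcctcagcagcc
GAAANNGAA occurs in 7.13% of all promoters and 7.53% of tested genes, in 9 of 18 type I interferon genes and in 9 of 12 genes of the GTPase and chemokine list. The STAT letters TTCNNGGAA occur in 4.06% of all promoters and 4.84% of tested genes, and in 4 of 18 and 5 of 12 of the same genes.

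Genes of mitosis were higher on the knockout-labelled array almost without exception: 31 of 32 tested members by at least 2-fold, 0 lower, with a median of 1.94. Resting spleen T cells enter division only a day or so after stimulation, and these genes act in its last steps. Bub1, a spindle checkpoint kinase, gave 1437 against 161 (8.92-fold), though its probe sets ran from 0.20 to 3.16. Nusap1, Spc25, Hmmr and Tpx2 also had a probe set under 2-fold, at 0, 0, 0.10 and 0.91. The mitotic kinases Aurka and Aurkb gave 1809 against 214 and 1120.5 against 163. Ccnb2, a mitotic cyclin, gave 2641 against 459, its kinase Cdk1 3205 against 653, and Top2a, which untangles chromosomes, 4763 against 1245. The labels were not equally far apart at each time. The list median was 1.03 before stimulation and 2.38 at 4 h. At 0 and 4 h 18 and 31 members were at least 2-fold higher, where 8.05% and 11.8% of all genes were. Ccnb2 signals on the knockout-labelled arrays were 3171, 3286 and 438 at 0, 4 and 24 h, and 1735, 598 and 436 on the wild-type-labelled ones. The Ccnb2 signals were thus nearly equal at 24 h, where the list median was -0.73 and 7 members were at least 2-fold lower, where 5.1% of all genes were.

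Replication genes showed a smaller difference at 8 h, with 13 of 31 higher, 0 lower and a median of 0.82 (1.58 with hybridisation control scaling). Rrm2, of ribonucleotide reductase, gave 3564 against 672 (5.31-fold), and Cdc6, which loads the helicase, 726 against 157. The helicase subunits Mcm2 to Mcm7 did not differ by 2-fold, with differences of -0.17 to 0.45, though the 5 probe sets of Mcm3 ran from -0.61 to 1.48. Pcna, the sliding clamp, gave 17416 against 20031. The list medians were 0.84 at 0 h and 1.23 at 4 h. At these times 14 and 18 members were at least 2-fold higher, where 8.05% and 11.8% of all genes were. At 24 h the list stood the other way, with a median of -1.60. Of 31 members 24 were at least 2-fold lower then, where 5.1% of all genes were. Of 21 genes for G1 cyclins, kinases and inhibitors 3 were higher at 8 h and 1 lower (median 0.41), beside 10.7% and 6.67% of all genes. Ccne2, which acts at entry to S phase, gave 573 against 142, and Btg2, which restrains the cycle, 2158 against 4337.

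The Ccnb2 window shows the letters of the cell cycle homology region, TTTGAA, in capitals. It lies at chr9:70421555-70421804 on the minus strand (RefSeq, GRCm38.p6), with the match 167 to 162 bases before the start.
Ccnb2: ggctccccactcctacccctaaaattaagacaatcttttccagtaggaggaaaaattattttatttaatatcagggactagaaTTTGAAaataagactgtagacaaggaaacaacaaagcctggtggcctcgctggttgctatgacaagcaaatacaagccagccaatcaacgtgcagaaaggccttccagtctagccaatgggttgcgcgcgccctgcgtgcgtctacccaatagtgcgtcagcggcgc
TTTGAA occurs in 15.99% of all promoters, in 12.6% of tested genes and in 10 of 27 mitosis genes. The NF-Y letters CCAATC occur in 14.6%, 22.3% and 17 of 27. The E2F letters TTTCGCGC occur in 0.256% of all promoters, 0.737% of tested genes and 5 of 28 replication genes.

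Enzymes of cholesterol synthesis were higher at 14 of 19 tested members and lower at 0 (median 1.15), and at 8 h more than at the other times. The pathway is switched on by Srebf2 when sterols run low and in growing cells. By step, Hmgcs1, which makes the precursor of mevalonate, gave 11577 against 3566. The kinase Pmvk gave 855 against 155 (5.53-fold), and Mvd, the decarboxylase after it, 896 against 164 (5.45-fold). Fdps, which joins isoprene units, gave 7407 against 1441. Squalene is then made by Fdft1, with 2930.3 against 1119, and oxidised by Sqle, with 3012 against 1397. Of the later sterol enzymes, Msmo1 gave 4052 against 1481 (2.74-fold), Cyp51 3157 against 1423 (2.22-fold), and Dhcr7 did not pass 2-fold with 297 against 179.9. Srebf2 itself gave 1324 against 1230.5. The list medians at 0, 4 and 24 h were -0.065, 0.38 and -0.35, with 0, 3 and 1 members at least 2-fold higher, where 8.05%, 11.8% and 9.19% of all genes were. For Hmgcs1 the signals were 1691 against 2469.5 at 0 h, 6195 against 2840.5 at 4 h and 2951 against 5132 at 24 h, so the label with the higher signal changed between 0 and 4 h and again by 24 h.

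The Mvd window is shown for the NF-Y letters CCAATC, in capitals, at chr8:122443423-122443672 on the minus strand (RefSeq, GRCm38.p6), 27 to 22 bases before the start.
Mvd: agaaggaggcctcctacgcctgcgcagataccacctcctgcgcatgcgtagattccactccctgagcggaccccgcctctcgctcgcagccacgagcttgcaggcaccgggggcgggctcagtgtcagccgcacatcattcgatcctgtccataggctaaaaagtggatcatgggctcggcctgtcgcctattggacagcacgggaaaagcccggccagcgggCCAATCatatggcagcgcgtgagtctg
CCAATC occurs in 12 of 15 cholesterol synthesis genes, beside 22.3% of tested genes. The sterol regulatory element searched, TCACNCCAC, occurs in 1.05% of all promoters, in 1.3% of tested genes and in 1 of the 15, Hmgcs1.

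Other lipid genes were few. Of 21 for fatty acids and lipids 4 were higher and 1 lower (median 0.21), beside 10.7% and 6.67% of all genes. Lpl, lipoprotein lipase, gave 9294 against 543 (17.1-fold), Plin2, of lipid droplets, 3219 against 396, and Scd2, a desaturase, 2239 against 475. Abca1, which exports cholesterol, was under the floor on the knockout-labelled array against 397, with 0 for its other probe set.

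On the lower side, 16 of 22 tested genes of the T cell receptor complex and its proximal signalling were at least 2-fold lower on the knockout-labelled array, 0 higher, with a median of -1.40 (-0.65 with each array divided by its hybridisation controls). Cd3d gave 4774 against 14902 and Cd3e 641 against 2502, 3.90-fold lower. The signalling chain Cd247 gave 1782 against 4643, the kinase Zap70 2580.1 against 6904, and the kinase Fyn 2966 against 7851. Trat1, an adaptor of the receptor, gave 447 against 2467 (5.52-fold lower), and Cd28, the receptor of the second antibody, 1816 against 6169. Zap70 had another probe set at -0.41. The lower level was present at 0 and 4 h, with medians of -1.51 and -1.63, and at 24 h the median was -0.24. Of all 564 genes at least 2-fold lower at 8 h, 174 (30.9%) lay below the T cell receptor median and 7 lay at least 2-fold below it. The 564 include 16 members of that list and were called on the same 2 arrays. These counts therefore describe sizes only, and no cause of the lower signals was tested. The coreceptor genes Cd8a and Cd8b1 gave 1701 against 5182 and 1322 against 4392, and Cd4 339.7 against 728, with other probe sets of Cd4 up to 0.29.

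Genes of naive and resting T cells were lower at 17 of 25 tested members and higher at 0 (median -1.26, and -0.51 with hybridisation control scaling). Klf2, which keeps T cells quiescent, gave 649 against 3224 (4.97-fold lower). Its difference was -0.80 at 0 h and -0.97 at 4 h. Lef1, a factor of the Wnt pathway, gave 195 against 990.1, and Itm2a, a membrane protein of activated and developing T cells, 1949 against 11758. Il7r, the survival receptor of resting T cells, gave 1160.2 against 2539.9. Ccr7, which guides T cells into lymph nodes, gave 5329.9 against 16363. Its labels stood the other way round by 24 h, with 32252 against 12552. Ets1 gave 3839.5 against 15433, with probe sets from -2.21 to -0.36. In contrast, 14 of 21 genes that mark memory and effector T cells were higher and 0 lower (median 1.59). Lgals1, galectin-1, gave 31823 against 2838 (11.2-fold), the calcium-binding S100a6 3762 against 283, and Vim, vimentin, 27876 against 4065. Anxa1, annexin A1, gave 5567 against 155 (35.8-fold). Myeloid cells express these genes too.

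Cytokine and helper cell genes went different ways. Il4, the cytokine of type 2 helper cells, had the largest difference on the lower side: it was under the floor on the knockout-labelled array against 5019, at least 35.4-fold lower. Its signals were 28.9 against 254 at 0 h, 190.4 against 8656 at 4 h and 422 against 1884 at 24 h, lower at each time. Gata3, the type 2 factor, gave 195 against 1533 (7.85-fold lower). The difference of Gata3 was largest at 8 h, with -0.40, -1.07 and -0.13 at 0, 4 and 24 h beside -2.97 at 8 h, and its wild-type-labelled signal at 8 h was the highest of the 8. Of 14 type 2 genes 4 were lower and 1 higher, beside 6.67% and 10.7% of all genes. Their median was -0.38 (0.082 with hybridisation control scaling). Il13 gave 242 against 576, and Il4ra, the receptor chain, 1058 against 2269.8, with 0.54 in another of its probe sets. Il3, a growth factor of mast cells and progenitors, was the higher member with 857 against 248.

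Il17a, the cytokine of type 17 helper cells, gave 14264 against 941, 15.2-fold higher, and was higher at all 4 times. Of 11 type 17 genes 2 were higher and 1 lower (median 0.074), beside 10.7% and 6.67% of all genes. Ccl20, which attracts Ccr6-bearing cells, gave 315 against a value under the floor. Irf4, a factor induced by receptor signals, gave 5452 against 22014, with its other probe set at -0.73. Il21 gave 362 against 278 and Batf 2659 against 2901. Of 10 type 1 genes 1 was higher and 1 lower, with a median of -0.21 (0.55 with hybridisation control scaling). These type 1 counts lie near the shares of all genes, 10.7% and 6.67%. Tbx21, the type 1 factor, gave 1733 against 4846, and Il12rb1, an interleukin-12 receptor chain, 1482 against 515. Il2, the growth factor of T cells, gave 7044 against 8782 and its receptor chain Il2ra 3124 against 4818, neither past 2-fold. Of 18 genes of interleukin-2, its receptors and their feedback 5 were lower and 0 higher, with a median of -0.50 (0.25 with hybridisation control scaling). Pim2, a survival kinase, gave 1574 against 5895 and Stat5b 1332 against 3373, with 0.25 for another probe set of Stat5b.

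Cytotoxic genes were split, with 5 of 21 higher and 6 lower and a median of -0.11 (0.43 with hybridisation control scaling). Gzmb, granzyme B, gave 16876 against 5075 (3.33-fold higher), whereas Gzma, granzyme A, gave 574 against 1952 (3.40-fold lower). Fasl, the death ligand, gave 450 against 1768, and by 24 h 2045 against 612. The lectin receptors Klrc1 and Klrk1 gave 2605 against 400.1 and 2131 against 390.4, and the chemokine Ccl5 13006 against 2116. The killing protein perforin, Prf1, gave 559 against 310.2. Of 16 regulatory T cell genes 5 were higher and 3 lower: Nrp1, also a receptor of other cells, gave 1827 against 398, with a probe set at 0.90, and Gpr83 was under the floor on the knockout-labelled array against 739.6. Of 15 genes of the CD28 family and inhibitory receptors 2 were higher and 1 lower, near the 10.7% and 6.67% of all genes. Ctla4 gave 2758 against 3763, and Havcr2, which encodes Tim-3 of T cells and phagocytes, 488 against a value under the floor.

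Genes that the T cell receptor switches on within hours were lower in part. Of 9 Egr and Nr4a genes 6 were at least 2-fold lower and 0 higher (median -1.09, and -0.33 with hybridisation control scaling). Egr1, an immediate early factor, gave 3862 against 15086 (3.91-fold lower), its relative Egr2 2616 against 7253, and their cofactor Nab2 911 against 1837. The orphan nuclear receptors Nr4a1 and Nr4a2 gave 6935 against 16756 and 807 against 2556. At 0 h Nr4a1 gave 1056 against 2569.9, so both labels were higher at 8 h than at 0 h. Of 12 MAP kinase feedback genes 5 were lower and 0 higher (median -0.99, and -0.23 with that scaling). Dusp10 and Dusp6, phosphatases of these kinases, gave 310 against 1414 and 387 against 1664. Of 13 AP-1 genes 4 were lower and 0 higher, with a median of -0.52 (0.24 with that scaling). Fos gave 3267 against 7233 and Atf3 1482 against 3895. Of 14 NF-kB genes 3 were lower and 1 higher, beside 6.67% and 10.7% of all genes. Among them were Relb with 1214 against 2781 and Tnip1, an inhibitor, with 4578 against 2165.

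Immunoglobulin genes were higher while B cell surface genes were not. Of 15 B cell genes 2 were lower and 1 higher, beside 6.67% and 10.7% of all genes. The median of that list was -0.55 (0.098 with hybridisation control scaling). Ms4a1, which encodes CD20, gave 183 against 1110.5 (6.07-fold lower). Btk, a kinase that myeloid cells share, was the higher member with 1125 against 161. Of 11 plasma cell and immunoglobulin genes 4 were higher and 2 lower. Jchain, which joins secreted antibody, gave 19518 against 3383 (5.77-fold), and the light chain gene Iglv1 17731 against 2168. The heavy chain gene Ighg3 gave 5901 against 166, and the kappa gene Igkv15-103 6158 against 149. Probes to immunoglobulin genes can take up transcripts of related segments. For Igkv15-103 the wild-type-labelled signals at 0, 4 and 24 h were 2420.1, 2261 and 47.2, and the knockout-labelled ones 12562, 9059 and 873.

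Genes of growth and basic metabolism differed little. Of 25 ribosome biogenesis genes 4 were lower and 0 higher, with a median of -0.62 (0.14 with hybridisation control scaling). Utp20, of the small subunit processome, gave 1497 against 3554, and Gnl3, nucleostemin, 4830.5 against 10948. Myc, the growth factor-induced transcription factor, gave 7019.7 against 13945, -0.99. The 19 cytosolic ribosomal protein genes lay between -0.75 and -0.38, none past 2-fold, with a median of -0.57 that became -0.035 under quantile normalization and 0.19 with hybridisation control scaling. None of 22 oxidative phosphorylation genes and none of 23 proteasome genes passed 2-fold (medians 0.17 and 0.032). Of 24 glycolysis and hypoxia genes 1 was higher at 8 h, Tpi1 with 4688 against 1771. At 24 h 18 were higher, where 9.19% of all genes were. Of 23 genes of amino acid supply and ATF4 stress 1 was higher and 2 lower (median -0.58, and 0.17 with that scaling). Of all genes 10.7% were higher and 6.67% lower. Slc7a5, a leucine transporter among the lower members, gave 3330.2 against 6685.

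Genes known or proposed as Gfi1 targets, a list put together from general knowledge, were split, with 8 of 29 tested members higher, 9 lower and a median of 0.34. The higher members were Elane, Csf1r, Il17a, Spi1, Hoxa9, Cebpa, Id1 and Csf1. Id1, an inhibitor of E proteins, gave 1288 against 400.3, and Csf1 509.5 against 253, with another probe set at -0.49. The lower members were Il4, Gata3, Ets1, Egr1, Egr2, Zap70, E2f5, Il7r and Nab2. Among targets by which Gfi1 is known to act on the cycle and survival, Cdkn1a and Mcl1 lay within 2-fold at 8 h. Cdkn1a, the inhibitor p21, gave 3664 against 2189.8, and Mcl1 11964 against 15315. At 4 h Cdkn1a gave 5824.5 against 1262 and at 24 h 14590.5 against 3113, differences of 2.21 and 2.23. The paralogue Gfi1b gave 415 against 434. Of the corepressors, Kdm1a gave 2505 against 3439 and Rcor1 1307 against 1942. AAATCA, the core letters of the Gfi1 site, occurs in 12.4% of all promoters and 9.36% of tested genes. Among genes at least 2-fold higher at 8 h it occurs in 81 of 714 with a promoter (11.3%), and among those lower in 48 of 457 (10.5%). The AP-1 letters TGACTCA (4.46% of all promoters, 4.36% of tested genes) and the NF-kB letters GGGACTTTC (0.289% and 0.43%) were searched likewise. They occur in 47 and 8 of the 714 and in 23 and 0 of the 457.

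The pairs at 0, 4 and 24 h show which 8 h differences stood at other times. These pairs share no array with the 8 h pair, but each genotype carries the same title number throughout, so they are not treated as replicates. Of the 908 genes higher at 8 h, 661 (72.8%) were also at least 2-fold higher at 4 h, where 11.8% of all genes were. At 0 h it was 365 (40.2%, beside 8.05% of all genes) and at 24 h 366 (40.3%, beside 9.19%), with 51 at least 2-fold lower at 24 h. Over all 4 times 157 were higher, and 152 were higher at 8 h alone. Of the 564 genes lower at 8 h, 239 (42.4%) were also lower at 4 h, beside 6.59% of all genes, 170 (30.1%, beside 6.78%) at 0 h and 68 (12.1%, beside 5.1%) at 24 h. At 24 h, 36 were at least 2-fold higher. Only 14 were lower at all 4 times, and 243 at 8 h alone. The part of the higher 3' to 5' ratios of the wild-type-labelled 8 h array in these counts was not tested.

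**Figure D3:**
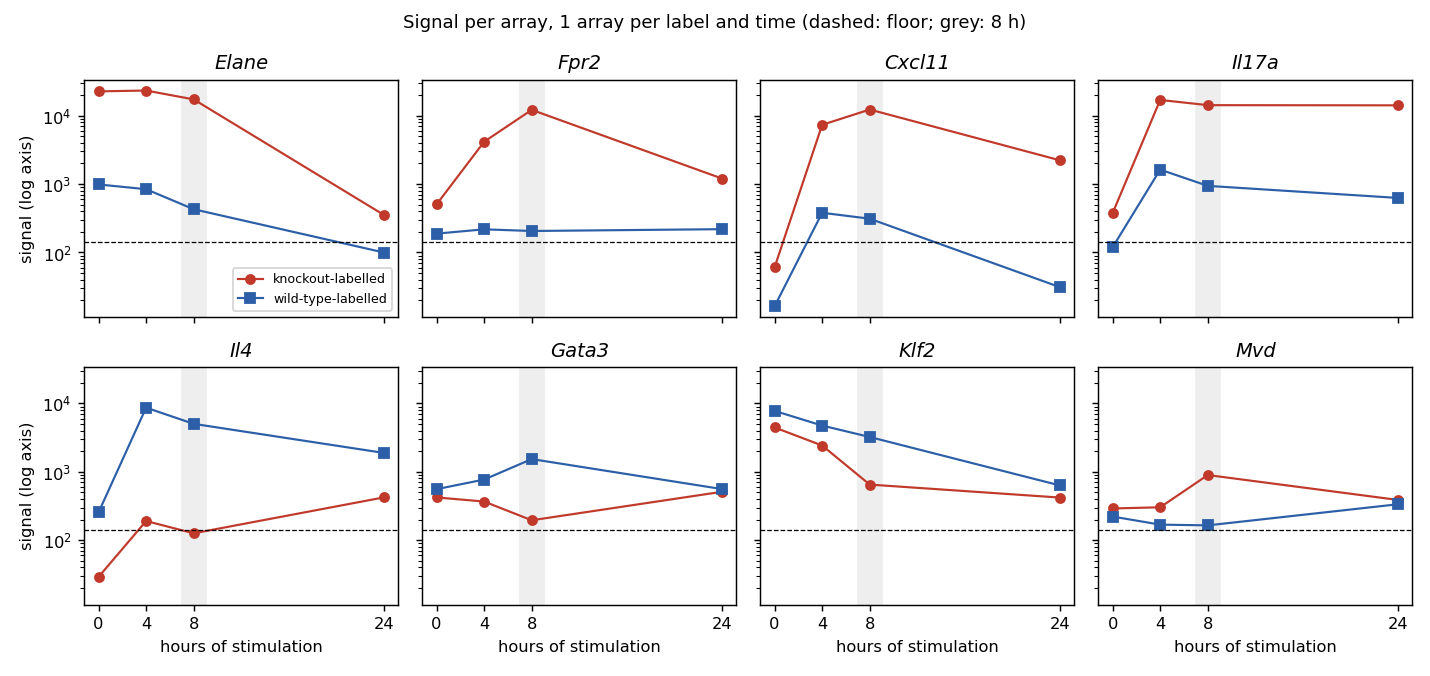
Signals of 8 genes over the 4 times (x axis, hours of stimulation; y axis, signal on a log scale), 1 array per point; red circles are knockout-labelled, blue squares wild-type-labelled, the dashed line is the floor and grey marks 8 h. At 8 h the red points lie above the blue ones for Elane, Fpr2, Cxcl11, Il17a and Mvd and below them for Il4, Gata3 and Klf2, and at 24 h the labels lie close together for Gata3 and Mvd.

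**Figure D4:**
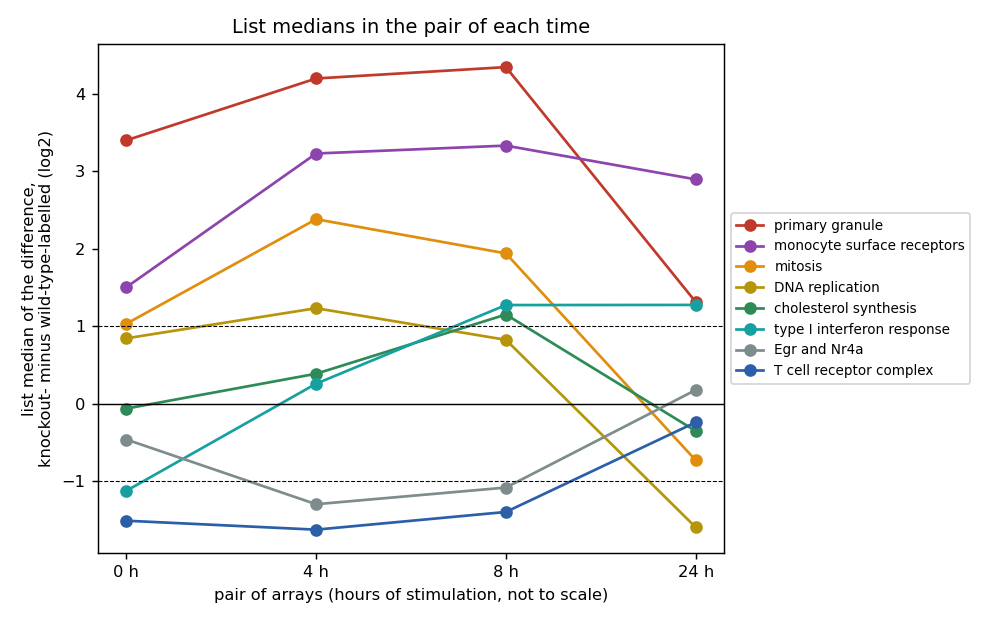
Median difference of 8 gene lists (y axis, log2, knockout-labelled minus wild-type-labelled) in the pair of each time (x axis, spaced evenly). At 24 h the mitosis and DNA replication medians are -0.73 and -1.60 after 1.94 and 0.82 at 8 h, the type I interferon median runs from -1.13 at 0 h to 1.27 at 8 h, and the cholesterol synthesis median is highest at 8 h.

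**Figure D5:**
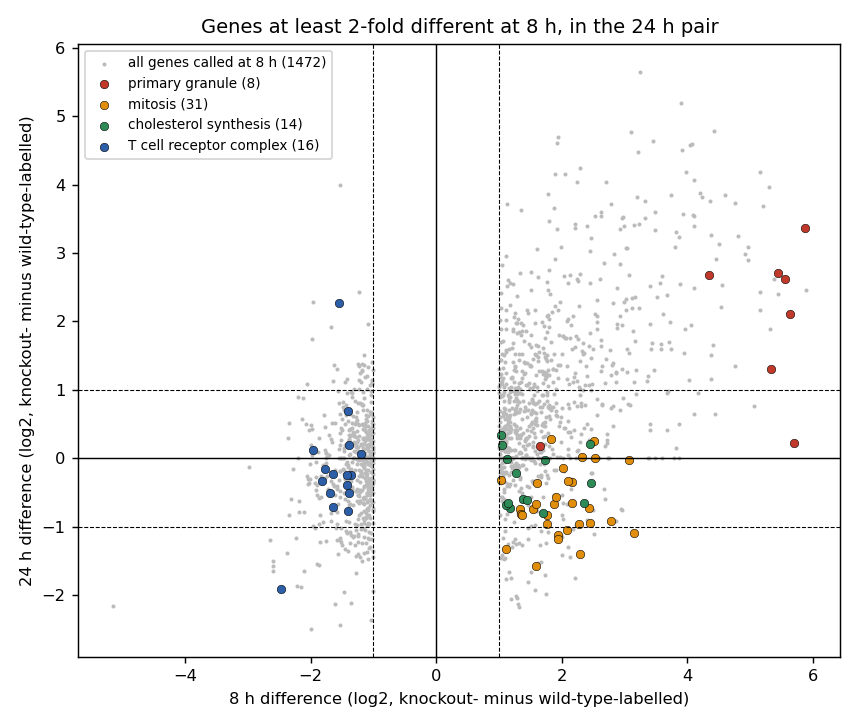
Difference at 24 h (y axis) against that at 8 h (x axis), both log2, for the 1472 genes at least 2-fold different at 8 h; dashed lines mark 2-fold and coloured points the called members of 4 lists. Of the 8 called primary granule genes 6 lie above the upper dashed line at 24 h, while the 14 called cholesterol synthesis genes lie between the dashed lines.

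Genes whose difference stood out at 8 h from both neighbouring times were few: 38 of the 713 higher genes and 50 of the 502 lower ones exceeded the 4 h and the 24 h difference by at least 2-fold. On the higher side Naaa, a lysosomal amidase, gave 2786 against 172, after 836 against 219 at 4 h and before 345 against 156 at 24 h. Axl, a receptor kinase for dying cells, gave 921 against 170.3 at 8 h, and its differences at 4 and 24 h were 0.82 and 0.27. Blvrb, biliverdin reductase B, gave 2424 against 184. Fpr2, Mvd, Ighg3, Igkv15-103 and Igkv14-111 complete the 8 with the largest excess. For Fpr2 the knockout-labelled signals were 503, 4162 and 1203 at 0, 4 and 24 h, while the wild-type-labelled ones stayed between 188.5 and 219. On the lower side Gata3 led, followed by Tesk1, Gm6607, L1cam, Tmem250-ps, Hdac7, Vamp2 and Hmbox1. Hdac7, a deacetylase that keeps receptor target genes silent, gave 500 against 2085, and its differences at 4 and 24 h were -0.49 and -0.26. Of these, Tesk1, a kinase of the cytoskeleton, gave 212 against 609, turning by 24 h to 376 against 241, and L1cam, an adhesion molecule, 161 against 371 and 359.5 against 152. Vamp2 and Hmbox1 each had another probe set at 0. Of the lower genes named here, all but L1cam had their highest wild-type-labelled signal at 8 h. Choosing genes by their excess over 4 and 24 h favours such a peak, so this describes the chosen genes only. That array also had the highest 3' to 5' ratios, whose part was not tested. For Vamp2 the wild-type-labelled signals were 363, 712 and 277 at 4, 8 and 24 h.

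Of the genes with the largest differences, those not yet described were the following. Alox5ap, needed for leukotriene synthesis, gave 5081 against 208 (24.4-fold). Against wild-type-labelled values under the floor stood Cfb, complement factor B, with 6161 (at least 43.4-fold), Dmkn with 5672, Igsf6 with 4726, Tgfbi, a secreted adhesion protein, with 4421, Ly6i with 3961, the stress protein Nupr1 with 2447 and Pstpip2 with 2432. These were at least 17.1-fold higher. On the lower side the sizes were smaller. Patj, a scaffold of cell junctions, gave 165 against 1002 (6.06-fold lower), Ablim1, which binds actin, 1233 against 6334, and Gimap7, a GTPase of lymphocytes, 229 against 1162. Prnp, the prion protein, gave 788 against 3691, having been 434 against 363 without stimulation. At 4 h and 24 h it differed by -3.21 and -1.17. Arap2 gave 1213 against 5554, Tacc2 359 against 1664, and Dgka, which removes diacylglycerol downstream of the receptor, 675 against 2955. The receptor Cd96 gave 346 against 1567, Tspan9 188 against 812 and Tnnt2 159.5 against 734. Under the floor on the knockout-labelled array were Sh3gl3 (against 884), the drug pump Abcb1a (against 685.9), Akr1c18 (against 627), Ubald1 (against 618), Cysltr2, a leukotriene receptor (against 589.7), Tdrp (against 583) and the gamma chain segment Trgv1 (against 539). Ccr9, the gut homing receptor, was under the floor against 526, but its other probe set differed by -0.062.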

How the data were processed

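RNA of each culture was hybridised to 1 Affymetrix MOE430A_2.0 array. The authors deposited 1 intensity per probe set and array on a linear scale, and the submitters' processing notes name GCOS 1.4 and MAS5; what each did is not stated there. The 2% trimmed mean is 999.9 on each array, so signals had been scaled, and a sample with more RNA of some kinds has lower signals for the rest. The number of arrays limits the precision: 1 per genotype and time gives no spread. No count of reads and no detection call was used here.

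Of 22690 probe sets 64 controls were set aside, and of the rest 20380 have 1 gene symbol in GEO's platform annotation, 691 several and 1555 none; genes were named from those with 1. Signals were floored at 141.88, the median over arrays of the 40th percentile, and put on the log2 scale. Of 22626 probe sets 15062 exceeded the floor on at least 2 arrays; 12393 genes had a named probe set and 8457 were tested. A call is a difference of at least 2-fold. Named genes were the 20 largest each way with both signals above the floor, the 10 largest bounds each way, the 8 each way that most exceed 4 and 24 h, and up to 4 members a list plus those whose role the text needs. Members, lists and motifs were chosen with earlier results of these data known. Motifs were searched on both strands in the 250 bases before each start in a RefSeq promoter table (GRCm38.p6), matched by symbol. Alternatives were other scalings, floors, filters, thresholds and the median over probe sets. Python 3.11.15, numpy 2.4.6, pandas 2.3.3 and matplotlib 3.10.9 were used, and the script was tested on simulated data.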

Additional observations from a re-analysis of the deposited data

Results flagged for a closer look

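Some results stood 1 way at 8 h and the other way in the pair of another time, with 1 array a label, and the difference between times was not tested. The type I interferon list had a median of -1.13 at 0 h and 1.27 at 8 h. Il1b differed by -1.21 at 0 h and by 4.55 at 8 h. Cysltr2 differed by 1.09 at 24 h and was under the floor on the knockout-labelled array at 8 h. L1cam differed by 1.25 at 24 h and by -1.20 at 8 h.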

How the results depend on the processing

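No paired analysis was possible because the 8 h comparison holds 1 array a genotype, and the pairs of other times carry the same title number per genotype. With the floor at the 20th percentile 2921 probe sets and 1639 genes were lower, and at the 60th percentile 876 probe sets and 547 genes were higher and 489 and 303 lower. On the log2 scale of signal plus floor 576 probe sets and 334 genes were lower. Dividing by the hybridisation controls, chosen after seeing the data, gave 3906 probe sets and 2229 genes higher and 103 and 70 lower; of 367 called genes in lists or named 78 lost their call and 0 reversed, and 136 others gained one. Of the list medians 4 of 15 called ones lost their call, 7 others gained one and 19 uncalled ones changed sign. At 1.5-fold 2737 probe sets and 1543 genes were higher and 3159 and 1740 lower, and at 4-fold 474 and 304 higher and 47 and 33 lower. Relative to the T cell receptor median, also chosen after seeing the data, 5879 genes were higher and 7 lower. Reversed were Egfl7 (-0.085) and Lmna (-0.14) where both 8 h signals had to exceed the floor, which named another probe set, and Csf1 (-0.16) as the median over probe sets. Counts of higher and lower genes stayed within 1.5 times of the main ones with median scaling, quantile normalization, no filter, the median over probe sets and a filter on both 8 h arrays. Quantile normalization kept 355 of the 367 calls and median scaling 358. Differences near the floor are limited by signal over background, and differences near 2-fold by the lack of a second array.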

Other observations

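Some gene groups outside the comparisons above also held called members at 8 h, where 10.7% of all genes were higher and 6.67% lower. Of 15 iron and haem genes 7 were at least 2-fold higher and 0 lower (median 0.45, and 1.21 with hybridisation control scaling). Alas1, the first enzyme of haem synthesis, gave 6092 against 838, Hmox1, which breaks haem down, 756 against 143, and the ferritin heavy chain Fth1 36516 against 11759. Of 22 actin and cytoskeleton genes 7 were higher and 0 lower, among them Capg, which caps actin filaments, with 5548 against 1592 and Flna, filamin A, with 3546 against 1332. Of 10 genes for class II presentation 2 were higher: Ifi30, a lysosomal thiol reductase, gave 6376 against 969, whereas the class II chains H2-Aa and H2-Eb1 gave 2242 against 4174 and 1255 against 2333.

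Of 10 BCL2 family genes, which promote or block cell death, 3 were lower, 0 higher and 7 within 2-fold. The median of that list was -0.24 and turned to 0.64 with hybridisation control scaling. Bcl2l11, which encodes the killer Bim, gave 3917 against 11208, with 5 probe sets from -1.63 to 0.27, and the protective Bcl2 447 against 1086. Of 10 dendritic cell genes 4 were lower and 1 higher: Cd83, of activated antigen-presenting and T cells, gave 3255 against 10606, and the chemokine Ccl22 381 against 1512. Of 18 genes of the unfolded protein response 2 were higher and 1 lower, near the 10.7% and 6.67% of all genes. Sdf2l1, of the endoplasmic reticulum, gave 1996 against 626. None of 18 heat shock genes, 10 red cell genes and 5 platelet genes passed 2-fold.

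The 8 h arrays were also set against their own neighbours in time. The knockout-labelled array had 73 of 8457 genes at least 2-fold above both its 4 h and its 24 h signal and 32 below both, and the wild-type-labelled array 63 and 24.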
